A study of Rattus norvegicus with 5 samples.

Results

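Claudins, cadherins and connexins are the proteins that hold neighbouring cells together, and their genes were followed here in proximal tubular cells of diabetic rats treated with C-peptide or left untreated. The members were the genes whose single platform symbol begins with Cldn, Cdh, Gja, Gjb, Gjc, Gjd or Tjp and ends in a number, with the gene of occludin (Ocln) and those of the junctional adhesion molecules (F11r, Jam2 and Jam3). Cldn5, Cldn16 and Cdh5 were not included. This gave 52 of the 14506 genes with a single symbol, namely 20 claudins, 14 cadherins, 12 connexins, 2 scaffold proteins of the Tjp family and 4 genes of occludin and the adhesion molecules. Each was measured by 1 probe set. From textbook knowledge 26 were classed as epithelial, 6 as vascular (Jam2, Jam3, Gja1, Gja4, Gja5 and Cdh13) and 20 as belonging mainly to other tissues.

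All 5 arrays held RNA of proximal tubular cells, the epithelium of the first nephron segment, taken from kidneys of diabetic (type I) rats of the Sprague-Dawley strain. Cells from 3 animals were kept with C-peptide, the peptide cut out of proinsulin, for 2 h, and cells from 2 animals were not given it. Every group was thus diabetic, and neither healthy cells nor other times and doses were analysed here. The comparison asks what C-peptide does to transcription early on. The labels number the animals within each group and do not say whether equal numbers are the same animal.

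Tight junctions seal the gap between epithelial cells and set which ions pass through it. Claudins form the strands of the seal, as pores or as barriers, occludin and the junctional adhesion molecules sit beside them, and the Tjp (zonula occludens) scaffolds tie them to actin. Cadherins bind the same cadherin on the next cell and carry the adherens junction, and connexins assemble into gap junction channels through which ions and small molecules pass from cell to cell. The proximal tubule is a leaky epithelium, typified by the pore-forming claudin Cldn2, whereas arterial endothelium is coupled by Gja4 and Gja5.

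As a check on the label, all 14 proximal tubule markers, such as Lrp2 and Cubn, lay at or above the 96.2 percentile of probe-set intensity. Some markers of other cells were as bright, so this alone does not set the cells apart. Thick limb and distal tubule markers ranged from the 14.6 to the 99.7 percentile, and smooth muscle and stromal markers from 32.6 to 99.5. Endothelial markers were also present on every array, 13 of 14 above the median intensity and none at 0. Median deposited intensities ranged from 60.1 to 95.9 between arrays, so intensities were brought to 1 distribution by quantile normalisation and all levels below are on that scale. Differences are C-peptide minus untreated on the log2(intensity + 16) scale, which understates the change of dim genes. Array correlations ranged from 0.970 to 0.982 within groups and from 0.958 to 0.982 between them.

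Of the 6 vascular junction genes, 4 lay well below 0 in the C-peptide-treated cells. Jam3, Gja5, Jam2 and Gja4 were lower by 1.62- to 2.20-fold, whereas most epithelial members lay slightly above 0 and were led by Cldn2 and Cldn4, higher by 1.64- and 1.59-fold. No member passed at adjusted p 0.05 in limma (the smallest was 0.101, for Jam3), and neither did any of the 14506 genes, a background of 0%. At unadjusted p under 0.05, 5 members were lower and 8 higher, against 7.12% of all genes lower and 5.94% higher, that is 1033 and 861 genes. The 5 lower members were 4 of the 6 vascular ones and the scaffold Tjp1, and 7 of the 8 higher members were epithelial. The difference between the classes was not tested. Beside these values, 13 of 14 endothelial markers were lower and 7 of 14 proximal tubule markers higher at the same threshold.

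**Figure D1:**
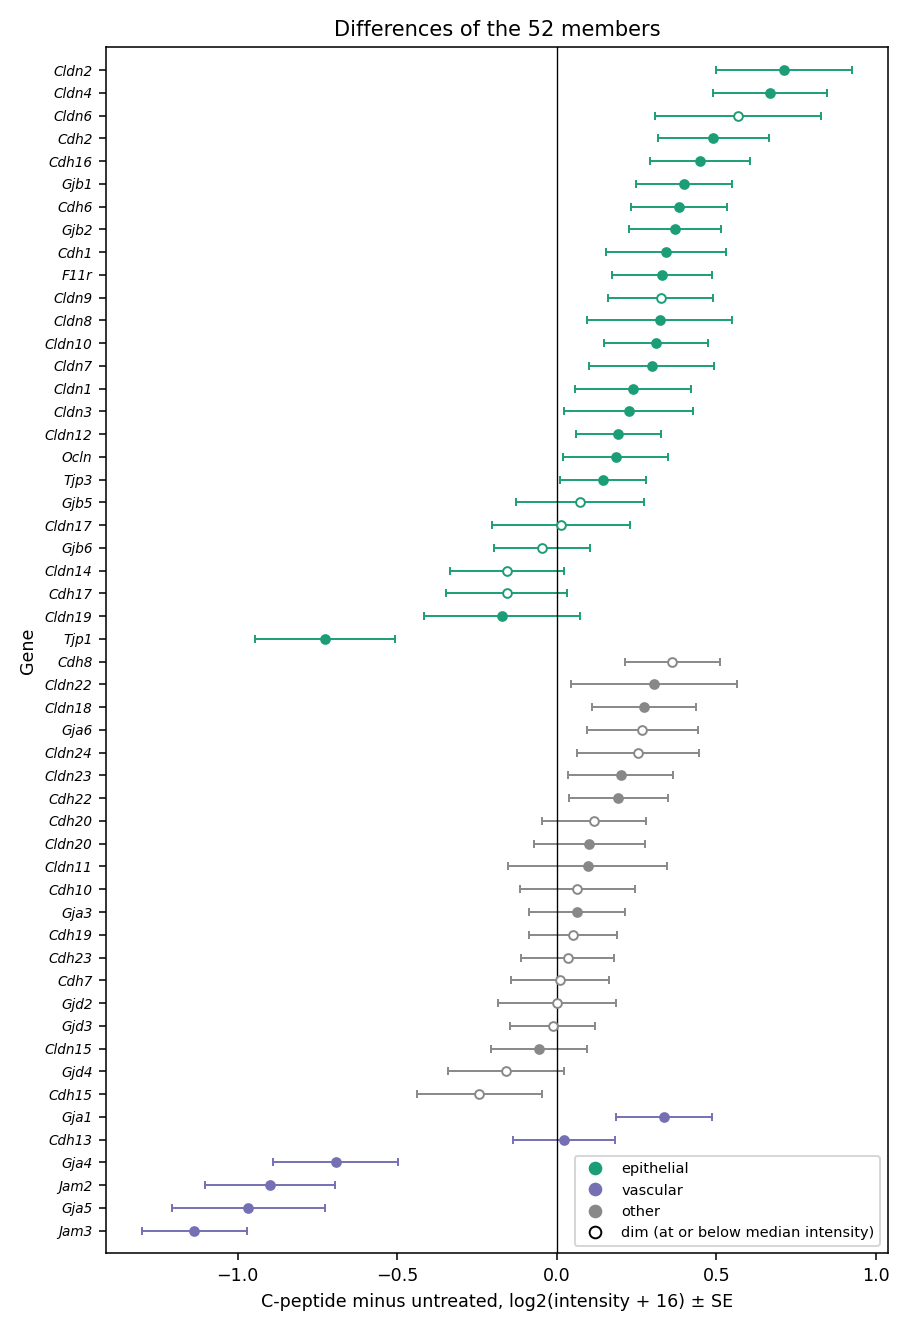
Difference between C-peptide and untreated cells for each of the 52 members (horizontal axis, log2(intensity + 16), points with SE), coloured by class and open where the gene was at or below the median intensity. Jam3, Gja5, Jam2, Gja4 and Tjp1 lie between -1.14 and -0.69, and no other member lies below -0.24 (Cdh15).

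Among the vascular adhesion molecules, Jam3 (JAM-C, an adhesion molecule of endothelial and other junctions) showed the largest difference of the 52. Its intensities were 136, 179 and 166 with C-peptide and 342 and 399 untreated, in order of animal number. All C-peptide arrays lay below both untreated arrays, and the means were 160.4 ± 21.7 against 371 ± 39.8 (SD, n = 3 and 2). Before normalisation the deposited values were 97.0, 206 and 158 against 380.1 and 432. The difference was -1.14 ± 0.17 (SE), at a limma adjusted p of 0.101. Jam2 (JAM-B, of endothelial junctions) stood at 144, 224 and 154 with C-peptide and 356 and 311 untreated. The groups again did not overlap, with C-peptide animal 2 closest to the untreated arrays. Jam2 differed by -0.90 ± 0.21 (adjusted p = 0.180 in limma). Tests over fewer probe sets put both genes past adjusted p 0.05, at 0.0165 and 0.0470 among probe sets above the median intensity and at 0.0152 and 0.0468 among those with 1 symbol. In those fits 386 and 329 probe sets passed. Jam2 did not pass at a pseudocount of 64 (0.0979) or with a trended and robust variance prior (0.0802). Their relative F11r (JAM-A, of epithelial and endothelial tight junctions) lay on the other side of 0. It stood at 363, 351 and 314 with C-peptide and 242 and 299 untreated, without overlap in the higher direction, and differed by 0.33 ± 0.16 (adjusted p = 0.482 in limma, 95% interval -0.04 to 0.70).

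Connexins lay on both sides of 0. Gja5 and Gja4 form the gap junctions of arterial endothelium, and Gja5 is also found in renin cells. Gja5 intensities were 84.1, 162 and 124 with C-peptide and 257 and 242 untreated. The lowest treated array, of animal 1, and the highest, of animal 2, were well apart, yet both lay below the untreated arrays. The Gja5 difference was -0.97 ± 0.24 (adjusted p = 0.206 in limma). Gja4 stood at 102, 149.8 and 126 with C-peptide and 242 and 185 untreated. Its groups did not overlap, and it differed by -0.69 ± 0.20 (adjusted p = 0.261 in limma). Without untreated animal 1, the brighter of the untreated arrays, the Gja4 difference was -0.51 and its unadjusted p 0.0805 in limma, no longer under 0.05.

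Gja1, the connexin of many cell types including smooth muscle and mesangium, lay the other way. It stood at 199, 178 and 219 with C-peptide and 145 and 161 untreated, so that every treated array was above both untreated ones, and differed by 0.34 ± 0.15 (adjusted p = 0.458 in limma). That separation was lost in the values as deposited, where the difference was 0.11, and without C-peptide animal 2 it was 0.41 (unadjusted p 0.0461 in limma). Cdh13, the lipid-anchored cadherin of endothelium and vessel wall, showed intensities of 136, 108 and 103 with C-peptide and 112 and 113 untreated, and its groups overlapped. Its difference was 0.02 ± 0.16 with a 95% interval of -0.35 to 0.40, and its sign turned under other settings, at -0.19 in the values as deposited. The 6 vascular members had a median of -0.80, beside 0.03 over all genes.

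**Figure D2:**
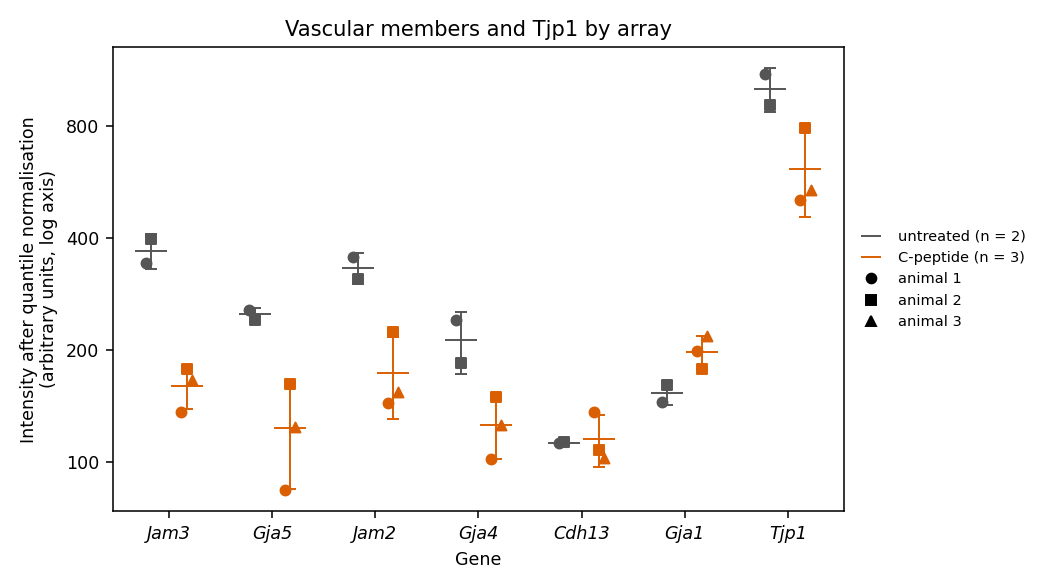
Intensity after quantile normalisation (vertical log axis, arbitrary units) of the 6 vascular members and Tjp1 on each array, with bars for the group mean and SD; marker shape gives the animal number within its group. For Jam3, Gja5, Jam2, Gja4 and Tjp1 all C-peptide arrays lie below both untreated arrays, with C-peptide animal 2 highest among the treated, while Cdh13 overlaps and Gja1 lies higher.

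The array of C-peptide animal 2 held the highest treated value of Jam3, Jam2, Gja5, Gja4 and Tjp1. The same array had the highest summed intensity of the endothelial markers among the treated, 14149 against 9367 and 9155, with 25619 and 21925 on the untreated arrays. Among the treated it also had the highest sums of podocyte (2532), immune cell (4169), collecting duct (3824) and thick limb and distal markers (17762). It had the lowest sum of proximal tubule markers (32465), so the order was not particular to endothelial markers. Of the 14 endothelial markers, 14 lay below 0 with a median of -1.14, and none of them was at 0 intensity on any array. Pecam1, an endothelial adhesion molecule, stood at 674, 1041 and 706 with C-peptide and 1942 and 1610.3 untreated. In these bulk samples fewer endothelial cells and less RNA per endothelial cell cannot be told apart, and the part of either in the values of the vascular members was not tested. Smooth muscle and stromal markers had a median of -0.16 over 9 genes, podocyte markers -0.50 over 6 and immune cell markers -0.49 over 11. Their summed intensities with C-peptide and untreated were 4737 to 4973 and 4983 to 5603 for stroma, 1536 to 2532 and 3889 to 4723 for podocytes, and 2882 to 4169 and 5014 to 5127 for immune cells. Podxl and Clic5, 2 podocyte markers known from endothelium too, made up most of the podocyte sums and differed by -1.32 and -1.21. Synpo and Ptpro were at -0.65 and -0.36, both lower without overlap, and Nphs1 and Wt1 at 0.11 and -0.17 with overlap. None of these markers was at 0, and their part was not tested either.

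Among the pore-forming claudins Cldn2 was higher at unadjusted p under 0.05, while Cldn10 was not and the dim Cldn17 was at 0.01. Cldn2, the cation and water pore typical of the proximal tubule, stood at 1358, 903 and 1326 with C-peptide and 649 and 782 untreated. The lowest treated array, of animal 2, was well under the other two and still above both untreated ones. The deposited values were 1068, 999 and 1297 against 697 and 850.2. The means were 1196 ± 254 against 715 ± 93.9 (SD, n = 3 and 2), and the difference was 0.71 ± 0.21 (adjusted p = 0.288 in limma). Cldn10, whose isoforms pass anions or cations along the nephron, was at 1437, 1723 and 1791 with C-peptide and 1223 and 1431 untreated. Its groups were separated by a narrow gap, between C-peptide animal 1 and untreated animal 2, and it differed by 0.31 ± 0.16 (adjusted p = 0.525 in limma). In the values as deposited its groups overlapped, at 0.12. Without untreated animal 1 the Cldn2 difference was 0.59 (unadjusted p 0.0872 in limma), and without C-peptide animal 1 that of Cldn10 was 0.40 (unadjusted p 0.0389).

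Among claudins of the distal nephron and collecting duct, Cldn4 was higher at unadjusted p under 0.05. It stood at 751, 601 and 764 with C-peptide and 493 and 385 untreated. The treated arrays were all brighter than the untreated ones, with means of 705 ± 90.6 against 439 ± 76.3 (SD, n = 3 and 2), and the difference was 0.67 ± 0.18 (adjusted p = 0.238 in limma). It had the smallest p of the epithelial members, and without untreated animal 2 the difference was 0.49 (unadjusted p 0.0671 in limma). Cldn8, of the same segments, stood at 239, 419.8 and 323 with C-peptide and 247 and 257 untreated. Its groups overlapped through C-peptide animal 1, and the difference of 0.32 ± 0.23 had a 95% interval of -0.21 to 0.86. Without C-peptide animal 1 it was 0.52 (unadjusted p 0.0236 in limma). Cldn3 and Cldn7, also of the distal segments, were at 0.23 and 0.30, and Cldn19, of the thick ascending limb, at -0.17, each with overlapping groups. Cldn1, known from the parietal cells of Bowman's capsule, was at 0.24 with overlap, and the widely expressed Cldn12 at 0.19 without it. Collecting duct markers had a median of 0.22 over 8 genes and thick limb and distal markers 0.33 over 7, and their part in these values was not tested. Summed, collecting duct markers ranged from 2465 to 3824 with C-peptide and from 2583 to 3188 untreated. Thick limb and distal markers ranged from 10102 to 17762 and from 11384 to 12924, so both sums overlapped. Of the 7 thick limb and distal markers 2 were higher without overlap, Slc12a3 at 0.69 and Calb1 at 0.48, and 3 lay below 0. Of the 8 collecting duct markers 2 were, Scnn1b at 0.39 and Aqp3 at 0.21, and 1 lay below 0. Among all genes 18.7% were higher without overlap. Over all 20 claudins, 17 lay above 0 (54.9% of all genes did), and the median was 0.25. At unadjusted p under 0.05 in limma 2 of 20 were higher and 0 lower, near the 5.94% and 7.12% of all genes.

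Of the tubule cadherins, Cdh16, Cdh2 and Cdh6 were higher at unadjusted p under 0.05 and Cdh1 was not. Of all genes 5.94% were higher at that threshold. Cdh16 (Ksp-cadherin, specific to kidney tubule epithelium) stood at 1163, 1359.6 and 1343 with C-peptide and 1024 and 857 untreated. The groups did not overlap, and the difference was 0.45 ± 0.16 (adjusted p = 0.359 in limma). Cdh2 (N-cadherin, the classical cadherin of the proximal tubule) was at 407, 315 and 434 with C-peptide and 260.3 and 275 untreated. Here too each treated array was above both untreated ones, and the difference was 0.49 ± 0.17 (adjusted p = 0.366 in limma). Cdh6 (K-cadherin, also of the proximal tubule) stood at 196, 183 and 227 with C-peptide and 156 and 145 untreated, without overlap, and differed by 0.38 ± 0.15 (adjusted p = 0.409 in limma). With single arrays left out, the limma p of Cdh16 was above 0.05 without C-peptide animals 2 or 3 or untreated animal 2 (differences of 0.42, 0.42 and 0.32). That of Cdh2 was above it without C-peptide animals 1 or 3 or either untreated animal (0.40 to 0.52), and that of Cdh6 without untreated animals 1 or 2 or C-peptide animal 3 (0.30 to 0.43). Cdh1 (E-cadherin, of the more distal segments) was at 346, 475 and 421 with C-peptide and 364 and 282 untreated. Its groups overlapped, since C-peptide animal 1 lay below untreated animal 1, and it differed by 0.34 ± 0.19 with a 95% interval of -0.10 to 0.78. Without C-peptide animal 1 that difference was 0.46 (unadjusted p 0.0406 in limma).

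Of the 4 epithelial connexins, Gjb1 and Gjb2 were higher at unadjusted p under 0.05, where 5.94% of all genes were. Gjb1, the connexin of liver and proximal tubule, stood at 149.5, 129 and 161 with C-peptide and 102 and 112 untreated. Gjb2, a connexin of many epithelia, stood at 173, 153 and 148 with C-peptide and 124 and 113 untreated. In both genes all treated arrays were above the untreated ones. They differed by 0.40 ± 0.15 and 0.37 ± 0.14 (adjusted p = 0.392 and 0.406 in limma). The limma p of Gjb1 was above 0.05 without C-peptide animals 1 or 3 or either untreated animal, and that of Gjb2 without C-peptide animals 1 or 2 or either untreated animal, with differences of 0.34 to 0.45 and 0.31 to 0.43. Gjb5 and Gjb6 were dim, at or below the median intensity of all probe sets, and were at 0.07 and -0.05, both with overlapping groups.

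**Figure D3:**
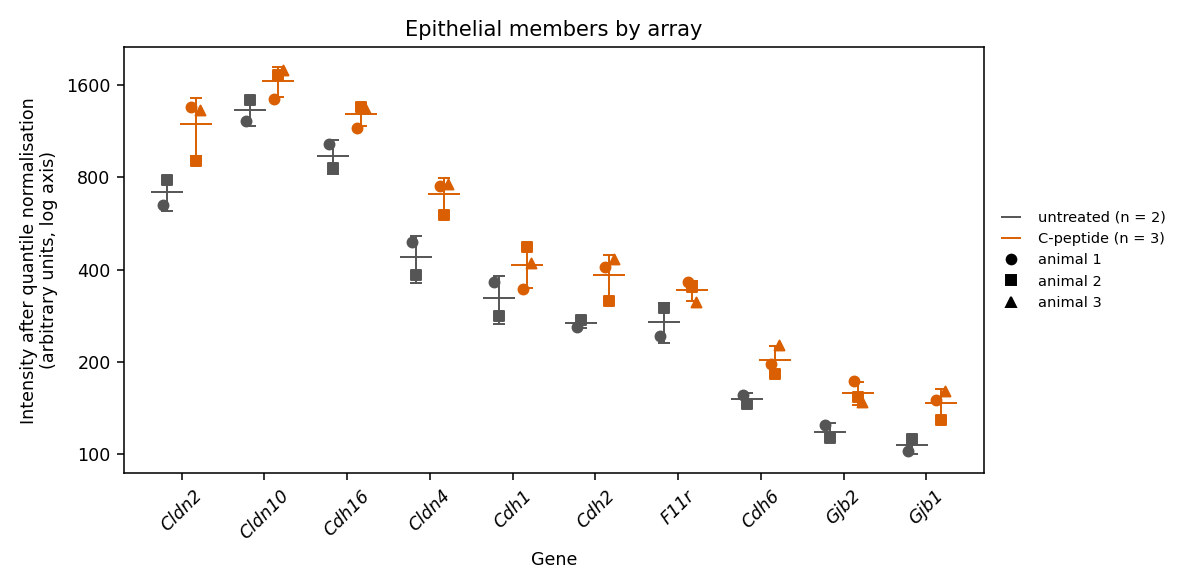
Intensity after quantile normalisation (vertical log axis, arbitrary units) of 10 epithelial members on each array, with bars for the group mean and SD; marker shape gives the animal number within its group. The treated arrays lie above both untreated arrays in every gene shown but Cdh1, and for Cldn2 C-peptide animal 2 is the treated array nearest to them. The 10 genes do not stand for the class, since 13 of all 26 epithelial members were higher without overlap. Ocln and Cldn8, whose groups overlapped, and Tjp1, which was lower, are not shown.

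Tjp1, the zonula occludens scaffold of both epithelial and endothelial tight junctions, was the single epithelial member that was lower at unadjusted p under 0.05. It stood at 506, 793 and 540.1 with C-peptide and 1103 and 914 untreated. The groups did not overlap, C-peptide animal 2 being nearest to the untreated arrays, and the difference was -0.73 ± 0.22 (adjusted p = 0.289 in limma). Without untreated animal 1 it was -0.60 (unadjusted p 0.0877 in limma). Tjp3, a scaffold of epithelial junctions, was at 0.14, with treated arrays at 161 to 172 and untreated arrays at 144 and 154. Ocln, the strand protein occludin, stood at 251, 314 and 283 with C-peptide and 222 and 272 untreated and overlapped between groups. Its difference was 0.18 ± 0.16, with an interval of -0.20 to 0.57.

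Of the 26 epithelial members, 21 lay above 0 (54.9% of all genes did), with a median of 0.30 beside 0.03 over all genes. At unadjusted p under 0.05 in limma 7 were higher and 1 lower, beside 5.94% of all genes higher and 7.12% lower. The groups did not overlap in 13 higher and 1 lower, where 18.7% of all genes were separated in the higher and 14.9% in the lower direction. The count depended on the scaling. In the values as deposited, whose median difference over all probe sets was -0.13 beside 0.02 after quantile normalisation, 15 of the 26 lay above 0 (27.5% of all genes did), the median was 0.09, and none was higher at unadjusted p under 0.05, where 0.614% of all genes were. Cldn2 and Cldn4 were then at 0.52 and 0.46, still without overlap, with limma p values of 0.0629 and 0.102. The 4 lower vascular members and Tjp1 stayed under 0.05 there, against 7.03% of all genes, with Jam3 at -1.37 and Gja5 at -1.17.

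The higher members also changed with single arrays left out, which weakens the test. Of the 8 higher members, 4 stayed at unadjusted p under 0.05 in limma when C-peptide animal 1 was left out, where 9 members in all were higher. When animal 2 of that group was left out, 5 of the 8 stayed. With animal 3 of that group left out, 3 did (Gjb2, Cldn4 and Cldn2), and 2 did without untreated animal 1 (Cdh16 and Cldn4) and without untreated animal 2 (Cldn2 and Cdh8). Of the 5 lower members, 3 (Jam3, Gja5 and Jam2) stayed under it without untreated animal 1, and all 5 did with any other single array left out. Proximal tubule markers also lay higher on these arrays, with 14 of 14 above 0 and a median of 0.47. Their summed intensity was 32465 to 43173 with C-peptide and 25286 to 30158 untreated, with none at 0. Their part in the epithelial values was not tested.

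**Figure D4:**
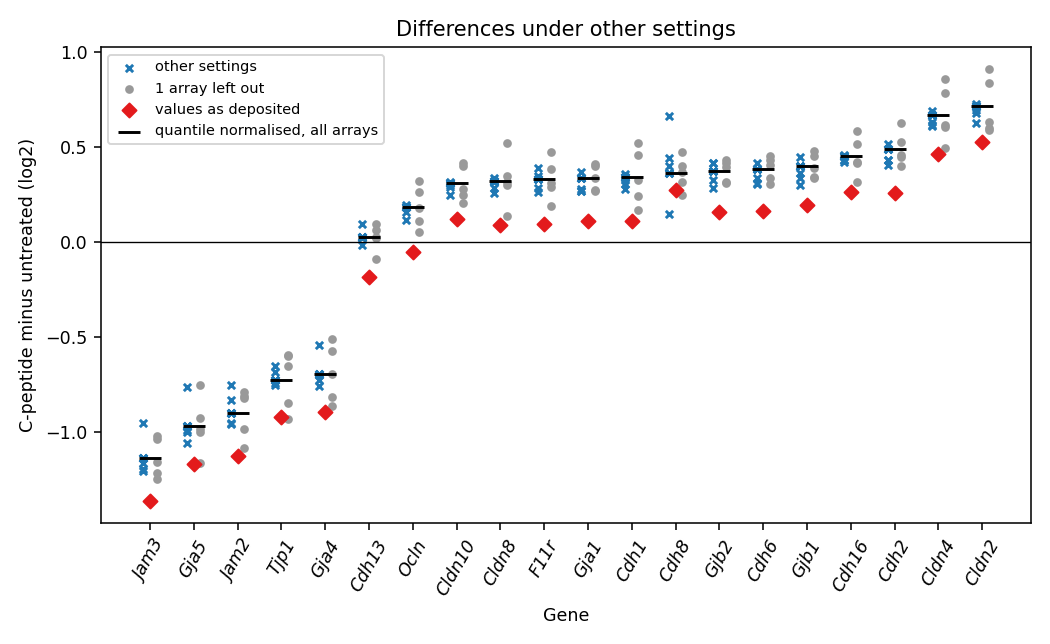
Difference between C-peptide and untreated cells (vertical axis, log2) of the 20 members described singly, after quantile normalisation (bars), in the values as deposited (diamonds), with 1 array left out (dots) and under the other settings (crosses). Jam3, Gja5, Jam2, Tjp1 and Gja4 lie below 0 at every setting, and the values as deposited are the lowest for every epithelial member shown but Tjp1.

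The remaining members were mostly dim or belong to other tissues. Of the 7 dim epithelial members (Cldn6, Cldn9, Cldn14, Cldn17, Cdh17, Gjb5 and Gjb6), Cldn6, a claudin of embryonic epithelia, had the largest difference, 0.57 ± 0.26, and none was under p 0.05. The 20 members of other tissues were 7 claudins (Cldn11, Cldn15, Cldn18, Cldn20, Cldn22, Cldn23 and Cldn24), 8 cadherins (Cdh7, Cdh8, Cdh10, Cdh15, Cdh19, Cdh20, Cdh22 and Cdh23) and 5 connexins (Gja3, Gja6, Gjd2, Gjd3 and Gjd4). They include the neural cadherins Cdh7, Cdh8 and Cdh10, the lens connexin Gja3 and the stomach and lung claudin Cldn18. Their differences ranged from -0.24 to 0.36 with a median of 0.08. The single one under p 0.05 was Cdh8, with means of 22.1 ± 2.60 against 13.7 ± 3.18 (SD, n = 3 and 2), among the dim genes. That is 5% of the 20, near the 5.94% of all genes that were higher at this threshold. Cdh8 was under it in 5 of 13 alternatives, and not in the values as deposited (p 0.308 in limma), nor without untreated animal 1 or any of the C-peptide animals. Of these 20, 12 were dim. Cldn15, best known from the intestine, was not dim and differed by -0.06 ± 0.15.

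Genes that work with the cadherins at the adherens junction lay on both sides of 0. Of 10 measured adherens junction partners, 3 were lower at unadjusted p under 0.05 (7.12% of all genes were) and none higher (5.94% of all genes were), with a median of -0.10. Nectin3, an adhesion molecule of adherens junctions, stood at 329.7, 438 and 360.3 with C-peptide and 579 and 632 untreated, without overlap, and differed by -0.67 ± 0.17 (adjusted p = 0.202 in limma). Jup (plakoglobin, which links cadherins to the cytoskeleton) was at -0.65 ± 0.22 and Ctnnb1 (beta-catenin, which binds the cadherin tail) at -0.42 ± 0.17, both also without overlap, while Nectin2 was at -0.28. Of 20 tight junction and polarity proteins none was under p 0.05 in either direction, beside the same shares of all genes, and the median was 0.07. The smallest p values there were those of Pals1 at 0.32 ± 0.14, Pard6b at 0.33 ± 0.15, Amotl2 at -0.39 ± 0.18 and Prkcz at 0.28 ± 0.16, of which Pals1, Pard6b and Prkcz belong to the apical polarity complexes.

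Because connexins and JAM genes lay on both sides of 0, the 250 bases upstream of their starts are shown for 3 lower members (Gja4, Gja5 and Jam2) and 2 higher ones (Gjb1 and Gjb2). They come from RefSeq on build GRCr8, which held an entry for 39 of the 52 members, and are given 5′ to 3′ on the gene's strand. Capitals mark matches, on either strand, to CAGGAA (an ETS core), TGGGAA (an RBPJ core), CCACCC (a KLF core) or GGGCGG (a GC box). The positions are chr5:144920325-144920574 (- strand) for Gja4, chr2:187290977-187291226 (+ strand) for Gja5, chr11:37317310-37317559 (+ strand) for Jam2, chrX:70541595-70541844 (+ strand) for Gjb1 and chr15:35381954-35382203 (- strand) for Gjb2.
Gja4: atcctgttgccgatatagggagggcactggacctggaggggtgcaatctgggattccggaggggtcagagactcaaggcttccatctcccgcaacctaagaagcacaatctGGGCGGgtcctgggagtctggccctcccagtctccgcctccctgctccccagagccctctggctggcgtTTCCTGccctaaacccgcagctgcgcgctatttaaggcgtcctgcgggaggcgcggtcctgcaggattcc
Gja5: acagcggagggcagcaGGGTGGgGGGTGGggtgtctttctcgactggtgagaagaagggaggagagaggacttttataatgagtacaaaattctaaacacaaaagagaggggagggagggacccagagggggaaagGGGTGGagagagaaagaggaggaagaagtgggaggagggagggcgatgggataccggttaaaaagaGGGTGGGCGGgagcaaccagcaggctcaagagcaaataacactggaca
Jam2: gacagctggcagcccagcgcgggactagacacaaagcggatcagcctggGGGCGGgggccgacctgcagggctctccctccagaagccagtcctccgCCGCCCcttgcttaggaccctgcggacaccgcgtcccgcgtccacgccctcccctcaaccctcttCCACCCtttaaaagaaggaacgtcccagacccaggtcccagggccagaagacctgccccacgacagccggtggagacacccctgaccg
Gjb1: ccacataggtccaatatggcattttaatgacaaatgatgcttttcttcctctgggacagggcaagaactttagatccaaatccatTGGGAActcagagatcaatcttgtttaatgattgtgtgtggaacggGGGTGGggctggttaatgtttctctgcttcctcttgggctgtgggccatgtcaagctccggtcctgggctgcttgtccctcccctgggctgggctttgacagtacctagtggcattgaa
Gjb2: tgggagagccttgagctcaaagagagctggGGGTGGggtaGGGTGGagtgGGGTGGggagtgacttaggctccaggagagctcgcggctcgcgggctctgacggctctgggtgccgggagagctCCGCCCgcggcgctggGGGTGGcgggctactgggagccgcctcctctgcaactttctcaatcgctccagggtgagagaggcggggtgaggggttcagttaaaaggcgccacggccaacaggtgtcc

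The GC box letters occurred in all 3 lower promoters shown and in that of Gjb2. They were in 20 of the 39 member promoters (51.3%) and in 32.4% of the 27457 promoters of the same length. F11r, which lay above 0, held them too, and the lower Tjp1 did not. The KLF letters were found in Gja5, at 4 places of which 1 overlaps the GC box, in Jam2, and in both higher connexins, and in 26.6% of all promoters. The ETS letters were present in Gja4, and in 24.6% of all promoters, and the RBPJ letters in Gjb1, and in 21.6%. These matches describe letters in these windows, and no motif searched was held by all lower members shown and by neither higher one.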

How the data were processed

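Per the labels' protocols, total RNA of isolated rat proximal tubular cells was amplified, labelled with biotin and hybridised to whole-transcript arrays. The deposited values are linear probe-set intensities, which per the submitters' processing notes the authors summarised with PLIER (Affymetrix Expression Console 1.1). The sources used here do not give background correction, scaling, filters or genome build.

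The 29215 probe sets were quantile normalised between arrays, since deposited array medians differed, and taken to log2(intensity + 16). A two-sided limma test (limma 3.58.1, R 4.3.3; lmFit, then eBayes) with no covariate compared the groups, and p-values of all probe sets were adjusted together by Benjamini-Hochberg. Genes came from the platform annotation (15310 probe sets with 1 symbol, 323 with several, 13582 with none); current RefSeq symbols of all 52 members were the same. A gene was its brightest probe set. Unadjusted p under 0.05, no overlap and 95% intervals are descriptions. The members, classes and lists were chosen with earlier results of these data known. Values are given singly for members under p 0.05, with a fold of at least 1.5, among the 10 brightest epithelial or of the vascular class, and for up to 4 genes per partner list. The script was tested on simulated data. The number of arrays limits the precision. The p-values set the group difference against the spread between these arrays, which eBayes moderates across all probe sets. Alternatives were other scalings, pseudocounts, filters, variance prior, animal block and leaving out each array.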

Additional observations from a re-analysis of the deposited data

How the results depend on the processing

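The 5 lower members (Jam3, Gja5, Jam2, Gja4 and Tjp1) kept their sign under every alternative run, and Jam3, Gja5 and Jam2 stayed at unadjusted p under 0.05 in each. The number of probe sets past adjusted p 0.05 in limma was 0 and moved widely. It was 52 in the values as deposited, 29 after centring, 1 and 118 at pseudocounts of 1 and 64, 386 above the median intensity, 329 with 1 symbol and 207 with a trended and robust variance prior. Members past it numbered 1 (Jam3) at a pseudocount of 64 and with the trended prior, and 2 (Jam3 and Jam2) above the median intensity, with 1 symbol and with averaged probe sets per gene, which tests genes alone. How many of all genes passed with averaged probe sets was not counted. In the values as deposited, 0 members were higher at unadjusted p under 0.05 in limma, where 0.614% of all genes were. Groups did not overlap there in 3 higher and 8 lower members. The share of all genes without overlap is not given for that setting, so these counts only describe it. The epithelial median of 0.30 was 0.091 as deposited, 0.26 after centring, 0.32 and 0.21 at pseudocounts of 1 and 64, and 0.32 above the median intensity. Ocln turned to -0.053 as deposited, and Cdh13 to -0.19 as deposited, -0.017 after centring and -0.090 without C-peptide animal 1, the lowest of a range up to 0.092 with single arrays left out.

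With 1 array left out, which for an untreated array assumes that the remaining one varies like the treated group, the following ranges were found. Higher members at unadjusted p under 0.05 numbered 2 to 9 and lower ones 3 to 6, members without overlap 18 to 24 higher and 5 to 9 lower (fewer arrays separate more easily), and the epithelial median ranged from 0.25 to 0.29. With the animal number as a block, 3 members were higher at unadjusted p under 0.05 in limma and the epithelial median was 0.28. Shares over all genes are not given with 1 array left out or with the block, so those counts only describe the settings. For arrays of equal number, the correlations of the deviations from the group means were -0.02 and 0.01. With 2 untreated arrays these deviations mirror each other, so they cannot show whether equal numbers are the same animal. The labels do not state a pairing, and the block is given here only. The cause of these changes was not tested. Low intensities limit what can be seen for the 19 dim members.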

Other observations

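Desmosome proteins, which anchor intermediate filaments at cell contacts, lay mostly above 0, with 5 of 6 measured genes there (54.9% of all genes were) and a median of 0.17. Pkp2, a plakophilin, stood at 505, 487 and 494 with C-peptide and 346 and 360.3 untreated. The 3 treated arrays were close together and above both untreated ones, and the difference was 0.47 ± 0.13 (adjusted p = 0.260 in limma). Perp, Pkp3 and Pkp1 were at 0.25, 0.17 and 0.17, with overlapping groups. Jup, which desmosomes share with adherens junctions, was on the other side of 0, at -0.65.

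The 3 pannexins, channel proteins that resemble connexins in membrane topology, were dim. Panx1 stood at 62.5, 56.3 and 50.2 with C-peptide and 32.7 and 43.1 untreated, without overlap, and differed by 0.43 ± 0.16 (adjusted p = 0.386 in limma). Panx2 and Panx3 were at 0.22 and -0.11.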
